A study of Rattus norvegicus with 10 samples.

Results

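The genes described here encode the nuclear subunits of the mitochondrial respiratory chain and of ATP synthase, measured in 10 rat lacrimal glands. The members were chosen by symbol alone: every probe set with a single gene symbol that starts with Nduf, Sdha to Sdhd, Uqcr, Cox4 to Cox8 or Atp5, or that is Cycs or Cyc1, with pseudogenes left out. This gave 55 genes on 101 probe sets, of 4736 genes on 7006 probe sets with a single symbol. By role, 24 genes belong to complex I, 1 to complex II, 4 to complex III, 12 to complex IV, 9 to ATP synthase (complex V), and 5 are assembly factors, regulators or paralogs of subunits. Another 7 probe sets carried several symbols and were left out, among them those for cytochrome c (Cycs), Atp5mc1, Atp5mc2, Cox7a2, Ndufb4 and Ndufs5.

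In the 5 denervated glands the greater superficial petrosal nerve, the source of their parasympathetic fibres, had been cut 7 days earlier. The 5 control glands were 3 contralateral glands from operated rats at the same time, 1 gland from an unoperated rat and 1 gland 7 days after a sham operation. No strain, sex or age is stated in the labels. Nor do they say whether each gland is from its own rat, and the p-values therefore reflect sample-to-sample spread that could be technical. For the 3 contralateral glands the descriptions name the operated side, against the titles, and the titles were used.

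The respiratory chain sits in the inner mitochondrial membrane. Complexes I and II pass electrons from NADH and succinate to ubiquinone, complex III hands them to cytochrome c, and complex IV (cytochrome c oxidase) reduces oxygen. Proton pumping by complexes I, III and IV drives ATP synthase. In a secretory gland this ATP fuels protein synthesis, the sodium pump and exocytosis. Some complex IV subunits exist as a widely expressed form and a form typical of heart and skeletal muscle, and the promoters of many subunit genes hold sites for NRF1, GABP (also called NRF2) and YY1.

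The promoter stretches of 3 genes are shown because they carry the results that follow: Cox8b, the member with the largest difference, Cox8a, the widely expressed form of the same subunit, and Ndufv3, a complex I subunit that was lower in denervated glands. Each is the 250 bases before the annotated gene start in RefSeq, build GRCr8, written 5′ to 3′ on the gene's own strand, with motif matches in capitals.
Cox8b, chr1:205408274-205408523, minus strand: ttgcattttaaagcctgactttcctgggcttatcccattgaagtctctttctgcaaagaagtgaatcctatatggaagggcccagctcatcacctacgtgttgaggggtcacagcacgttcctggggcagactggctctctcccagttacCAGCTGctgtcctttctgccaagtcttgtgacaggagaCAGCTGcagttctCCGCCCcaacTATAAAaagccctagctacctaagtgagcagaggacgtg
Cox8a, chr1:213833624-213833873, minus strand: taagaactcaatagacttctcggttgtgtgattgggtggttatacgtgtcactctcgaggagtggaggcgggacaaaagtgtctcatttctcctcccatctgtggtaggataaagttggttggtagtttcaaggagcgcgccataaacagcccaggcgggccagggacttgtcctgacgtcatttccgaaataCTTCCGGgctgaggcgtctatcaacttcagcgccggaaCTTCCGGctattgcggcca
Ndufv3, chr20:9613536-9613785, plus strand: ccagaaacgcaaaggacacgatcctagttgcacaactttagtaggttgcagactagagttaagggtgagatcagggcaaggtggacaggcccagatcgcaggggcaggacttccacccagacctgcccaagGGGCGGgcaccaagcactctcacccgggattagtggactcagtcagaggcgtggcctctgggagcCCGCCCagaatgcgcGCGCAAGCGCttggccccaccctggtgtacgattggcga
The capitals mark the core promoter box TATAAA, the GABP motif CCGGAAG, the YY1 motif AAGATGGC, the Sp1 motif CCGCCC, the E-box of muscle factors CAGCTG and the palindromic consensus of NRF1, each searched on both strands. Cox8b has a TATA box and a pair of E-boxes in this stretch, Cox8a has GABP matches, and Ndufv3 has an NRF1 match between its Sp1 matches and the gene start. Promoters, counted with 50 bases after the start as well, were found for 47 of the 55 members. A YY1 match was present in 11 of them (23.4%) against 3.44% of all 27457 rat promoters, a GABP match in 10 (21.3%) against 9.22%, and an NRF1 match in 6 (12.8%) against 4.71%. The TATA box went the other way, with 2 members, Cox8b and Ndufs6 (4.26%), against 14.3%. Sp1 matches were found in 44.7% of members and 34.9% of all promoters, and the E-box in 21.3% and 15.1%. These are matches of letters and not measured binding.

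All values below are log2 of the scaled array intensity, and a difference of 1 is 2-fold. A gene with several probe sets is represented by the one with the highest mean over the glands, and for genes named below its other tested probe sets are given where their signs differ. Intensities of different probe sets do not rank genes by abundance. Values were not allowed below 7.29, called the floor, and probe sets with a mean above 8.32 were tested. All 55 genes had a tested probe set, 93 probe sets in all, and 17 of the 101 member probe sets were at the floor in 1 or more glands. Probe sets of Ndufa4l2 (mean 8.36) and Ndufs4 (8.39) lay just inside this limit, and those of Ndufb8 (8.26) and Cox8b (8.17) just outside. In 5 of the 93 the mean of 1 class lay under the limit, so that they were tested only through the class in which they were higher. These were the brighter probe set of Cox8b and the dimmer one of Ndufa4l2, through the denervated glands, and Cox5a and dim probe sets of Ndufab1 and Ndufs4, through the controls.

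The glands held lacrimal secretory transcripts: Pip, a tear protein, ran from 16.67 to 20.49, and Aqp5, the apical water channel, from 12.61 to 14.21. Scgb2a1, a secretoglobin, was at the floor in contralateral 1, sham and denervated 1, 2 and 5 and at 16.18 to 18.46 in the other 5 glands, so glands of the same label differ. Correlations between arrays ran from 0.757 to 0.925 across probe sets, and array medians from 554 to 979. Contralateral 1, sham and denervated 1 stood apart from the other glands in Cox6c and were highest in Cox6a2 (both below), though Scgb2a1 divided the glands otherwise. The results for Cox8b, Cox6a2 and Cox6c and some counts are also given without them. This set was chosen after the data were seen, so for Cox6a2 and Cox6c leaving it out shifts the difference by the choice itself.

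Taken over all members, the respiratory chain genes had mean levels in denervated glands that lay almost wholly within the spread of the controls. The mean over all 55 genes, taken as the log2 difference from each gene's control mean, was -0.02, 0.11 and 0.10 in contralateral 1 to 3, -0.21 in the unoperated gland, 0.02 in the sham gland, and -0.07, 0.03, 0.00, -0.10 and 0.12 in denervated 1 to 5. The denervated glands lay inside the range of the controls except denervated 5, which was above them by a margin within the control SD of 0.128. With each array divided by its median in place of the deposited scaling, denervated 1 to 5 were at -0.21, 0.20, 0.25, 0.37 and -0.04 and the controls at -0.32 to 0.31, and denervated 4 was then the gland above them. Of the 55 genes, 31 were higher after denervation and 24 lower, and the median difference was 0.02. Over all probe sets tested the median was -0.08, and over those with a mean of 12 or more it was -0.0021. Leaving out each gland in turn moved the median of the 55 genes between -0.07 and 0.06, so its sign was not fixed. No member reached an adjusted p under 0.05 by limma, nor did any of the 6118 probe sets tested (0%). At an unadjusted p under 0.05, 2 of the 93 member probe sets were higher and 5 lower, where 5.02% and 4.66% of all probe sets tested were (9.68% in either direction). In whole tissue, fewer cells of a type and less RNA per cell cannot be told apart.

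**Figure D1:**
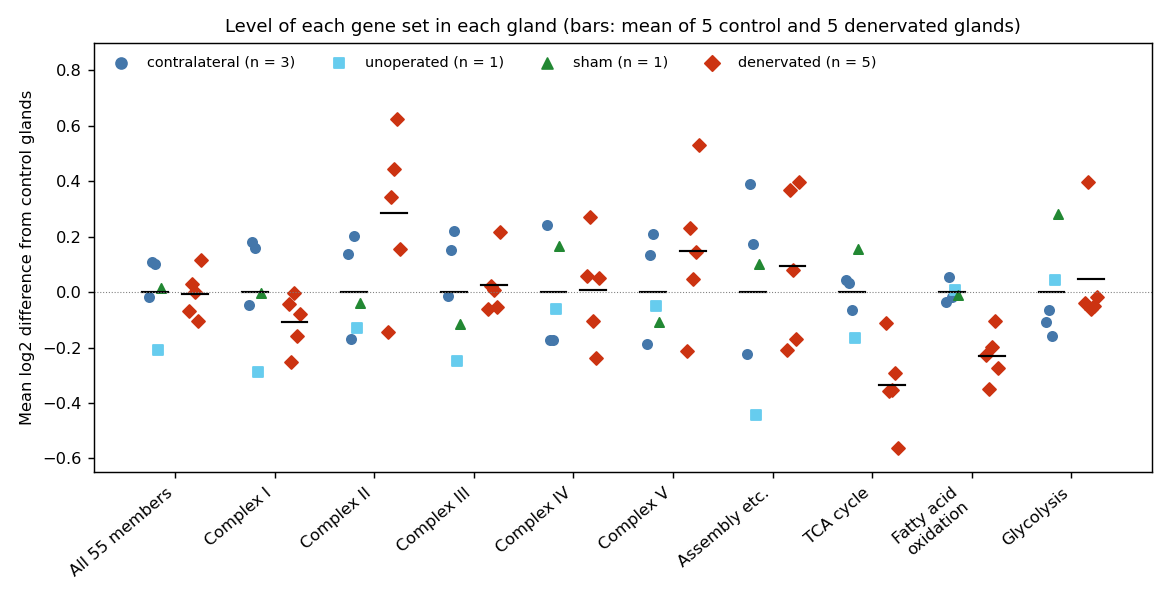
Mean log2 difference from the control mean (vertical axis) for the 55 members, each complex and 3 other metabolic lists, with 1 point per gland and bars at the mean of 5 control and 5 denervated glands. With the deposited scaling, the points of all 55 members lie between -0.21 and 0.12 in both classes. Fatty acid oxidation genes lie from -0.35 to -0.11 in denervated and from -0.04 to 0.05 in control glands, and no other scaling was tried for them.

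The intervals bound the size of change that the data allow. The 95% interval of the difference lay within 2-fold in either direction for 43 of the 55 genes (78.2%). Over probe sets this was 61 of 93 members (65.6%) against 22.6% of all tested. Among probe sets with a mean of 12 or more, where arrays are more precise, it was 55 of 63 members (87.3%) and 677 of 1188 in all (57.0%). Only 11 genes had an interval within 1.5-fold, so smaller differences are not resolved with these arrays. The median SE was 0.24 for member genes and 0.50 for all probe sets.

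**Figure D2:**
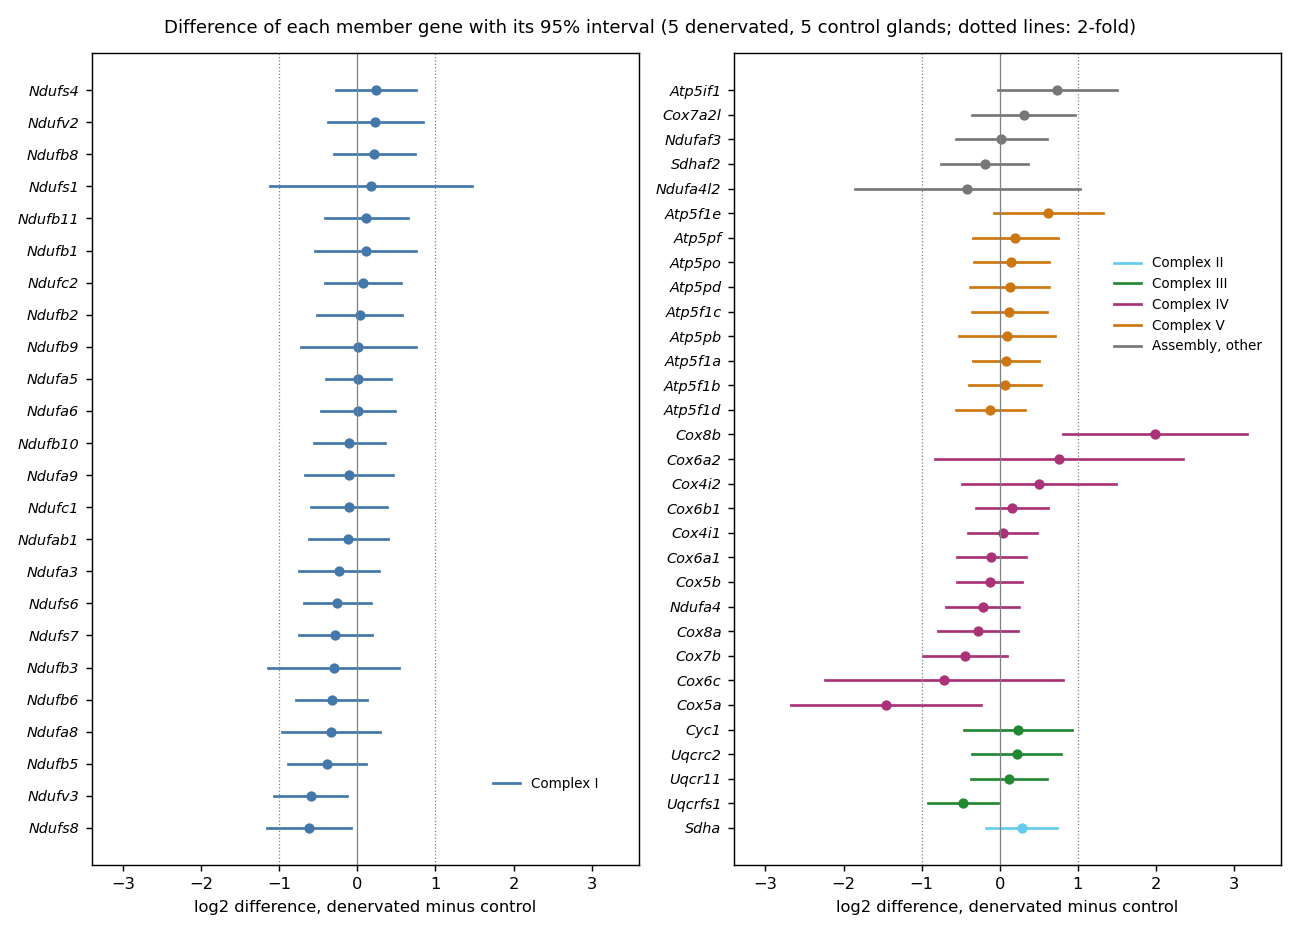
Log2 difference between 5 denervated and 5 control glands (horizontal axis) for each of the 55 member genes, with the 95% interval from limma, ordered by complex and by size. Most intervals cross 0 and stay between the dotted lines at 2-fold, and Cox8b stands to the right of the others with a difference of 1.99.

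Complex I, the NADH dehydrogenase, is the largest complex. Of its 24 genes, 11 were higher and 13 lower in denervated glands, the median difference was -0.11, and the interval lay within 2-fold for 20. The core subunits that hold iron-sulfur clusters differed in sign, with -0.62 for Ndufs8 and 0.23 for Ndufv2, and Ndufs4, an accessory subunit needed for assembly, differed by 0.24. The other probe sets of Ndufs4 differed by 0.17 ± 0.39 and -0.20 ± 0.66. Ndufab1, the acyl carrier protein, differed by -0.12 ± 0.24, with 0.03 ± 0.34 and -1.14 ± 0.77 for its others, and Ndufb8 by 0.22 ± 0.24, with 1.05 ± 0.74 and -0.72 ± 0.61.

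Ndufv3, an accessory subunit of the NADH-oxidising module, read 14.97, 14.47 and 14.48 in contralateral 1 to 3, 14.69 in the unoperated and 14.79 in the sham gland. The denervated glands read 14.65, 13.72, 14.19, 13.85 and 14.00. Denervated 1 lay within the control range and the other 4 lay below every control. The difference was -0.60 ± 0.22 (SE, 5 against 5 glands), or 0.661 times the control level, with an adjusted p of 0.448 by limma. Its dimmer probe set had the opposite sign (0.48 ± 0.69).

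Ndufs8, which carries iron-sulfur clusters on the path to ubiquinone, read 12.68, 12.98 and 12.55 in the contralateral glands, 12.71 unoperated and 12.79 sham, and 12.39, 12.76, 12.06, 11.49 and 11.89 in denervated 1 to 5. Denervated 2 fell inside the control range and the other 4 were below it. The difference was -0.62 ± 0.25 (adjusted p = 0.459, limma), and its other 3 probe sets also had negative differences, from -0.81 to -0.24. Ndufs1, the largest iron-sulfur subunit, was near the floor at 7.30 in the unoperated gland and at 9.80 to 10.78 in the other controls, with a difference of 0.18 ± 0.60.

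Complex II was represented by Sdha, the flavoprotein that also belongs to the citric acid cycle. Sdha read 12.73, 12.42 and 12.80 in contralateral 1 to 3, 12.46 unoperated and 12.55 sham, against 12.45, 12.94, 13.04, 13.22 and 12.75 in the denervated glands. Denervated 2, 3 and 4 exceeded every control, and denervated 1 and 5 did not. The difference was 0.28 ± 0.21 (adjusted p = 0.675, limma).

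Complex III, the cytochrome bc1 complex, had 3 genes with positive and 1 with a negative difference. Uqcrfs1, the Rieske iron-sulfur protein, was lower: it read 14.66, 14.29 and 14.12 in contralateral glands, 14.18 unoperated, 14.19 sham, and 14.18, 13.92, 13.83, 13.78 and 13.37 after denervation. Denervated 1 overlapped the controls and the other 4 did not. The difference was -0.47 ± 0.21 (adjusted p = 0.495, limma), with -0.15 ± 0.22 and 0.01 ± 0.22 for its other probe sets.

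Uqcrc2, a core protein of complex III, read 12.41, 13.02, 12.91, 12.87 and 12.53 in contralateral 1 to 3, unoperated and sham, and 12.64, 12.42, 13.03, 12.90 and 13.84 in denervated 1 to 5. Denervated 5 alone was clearly above the controls, and the difference was 0.22 ± 0.27 (adjusted p = 0.809, limma), and -0.0023 without that gland. Uqcr11, a small subunit, read 14.01, 14.43, 14.86, 14.88 and 14.35 in the same controls and 14.24, 14.79, 14.60, 14.54 and 14.97 in the denervated glands, which overlapped throughout (0.12 ± 0.23). Its other probe set differed by -0.01 ± 0.23. Cyc1, the cytochrome c1 subunit, read 11.55 in the unoperated gland and 12.93 to 13.46 in the other 9.

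Complex IV is the terminal oxidase. Of its 12 genes, 5 were higher and 7 lower, with a median of -0.12, and 7 had intervals within 2-fold. The range ran from -1.46 for Cox5a to 1.99 for Cox8b. The regulatory subunit Cox4i1 was steady, at 16.16, 16.13 and 16.41 in contralateral glands, 16.34 unoperated, 15.87 sham, and 16.09, 16.40, 16.13, 16.04 and 16.44 after denervation. Its difference of 0.04 ± 0.21 had an interval from -0.40 to 0.48. The other probe sets differed by -0.04 ± 0.19 and -0.08 ± 0.19, and the sign of the first turned under several other settings.

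Cox8b is the form of subunit VIII found mainly in heart, skeletal muscle and brown fat. It read 7.71, 7.67 and 7.60 in contralateral 1 to 3, 7.96 unoperated and 8.04 sham, all within 1 unit of the floor, and 8.21, 10.61, 9.61, 9.59 and 10.91 in denervated 1 to 5. Every denervated gland was above every control, the one member probe set of 93 for which the classes did not overlap (0.637% of all tested did so upward, and 1.67% in either direction). Denervated 1 was only just above the sham gland, and denervated 2 and 5 were highest. All 5 control values were under the limit for testing, and the probe set was tested only because the denervated glands were higher. The difference was 1.99 ± 0.55 (SE), with an interval from 0.81 to 3.17 and an adjusted p of 0.434 by limma, or 0.528 over all 8740 probe sets with no limit on dim ones. No fold is given, because the control values lie near the floor and its size depends on where that is set.

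A second Cox8b probe set, too dim to be tested, was at the floor in all contralateral glands and the sham gland and read 8.07 in the unoperated gland. It read 7.80, 10.15, 8.07, 8.59 and 9.84 in denervated 1 to 5. Denervated 2 and 5 were again highest, and denervated 1 lay within the control range. With denervated 1, the lowest denervated gland, left out, the difference was 2.38 ± 0.51 with an adjusted p of 0.0479 by limma, 1 of 66 probe sets called (1.08%). This one value under 0.05 rests on dropping the gland nearest to the controls, in a probe set tested only through its denervated values. A D13122_f_at probe set for Atp5if1 was the other member among them. Without contralateral 1, sham and denervated 1 the Cox8b difference was 2.43 ± 0.59 (adjusted p = 0.171), with 0 probe sets called. Over all alternatives that kept it, the adjusted p of Cox8b by limma ran from 0.0479 to 0.764. Without denervated 2 and 5 the Cox8b mean fell below the limit for testing.

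**Figure D3:**
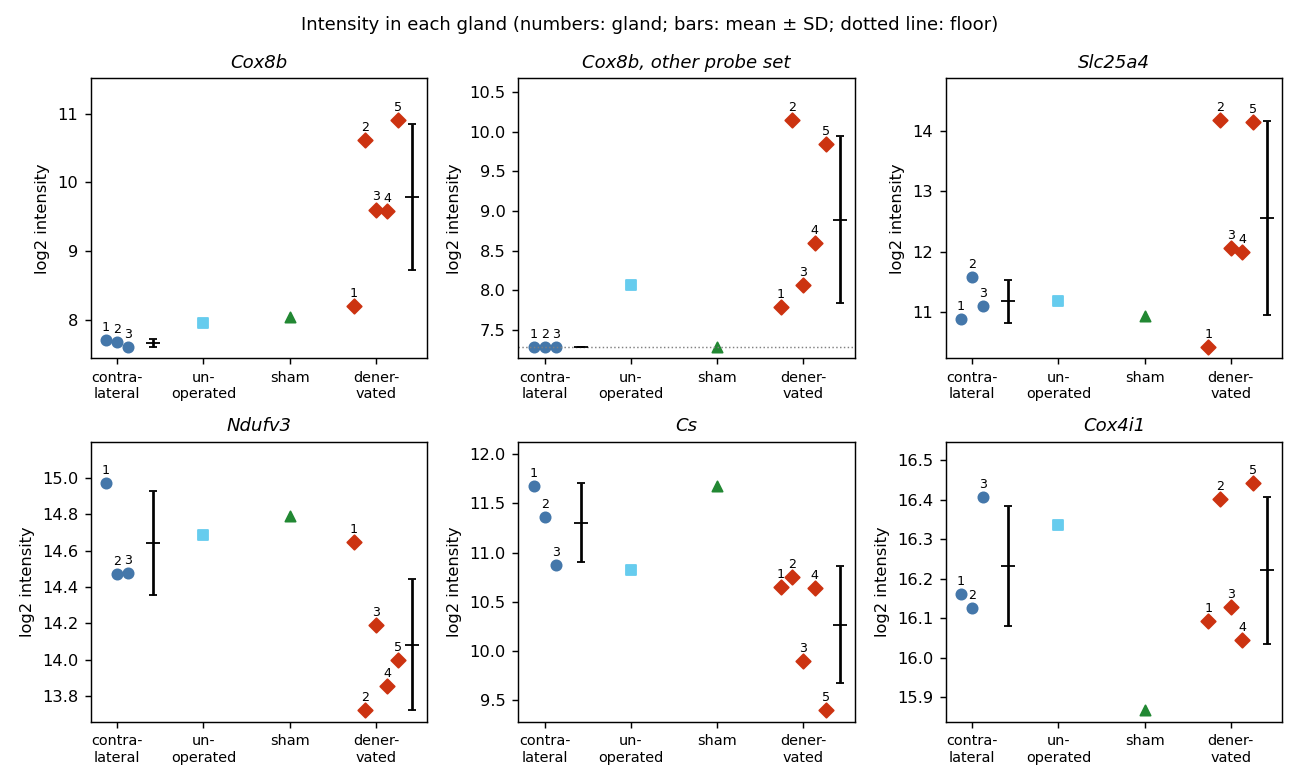
Log2 intensity (vertical axis) in each gland for 6 probe sets, with gland numbers beside the points, mean ± SD for the contralateral (n = 3) and denervated (n = 5) glands, and a dotted line at the floor where it is in range. Both Cox8b probe sets and Slc25a4 are highest in denervated 2 and 5, Ndufv3 and Cs are lower in most denervated glands, and Cox4i1 overlaps between the classes.

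Fibroblast markers ordered the denervated glands as Cox8b did, with 7 of 8 genes higher than in controls. The mean of these 8 markers (log2, from control means) was -0.07, 1.72, 1.22, 0.38 and 2.35 in denervated 1 to 5 and -0.49 to 0.71 in controls, and their summed intensity was 134388 to 579748 against 100314 to 189556. Adipocyte markers, 5 of 6 tested genes higher, did so in part. Their mean was -0.43, 1.13, 0.72, 0.68 and 1.11, and -0.68 to 0.30 in controls, with summed intensities over 8 markers of 16810 to 25350 against 13284 to 18051. Plin1, the lipid droplet coat protein, was at the floor in denervated 2, 3, 4 and 5, and Ucp1, the uncoupling protein of brown fat, read 7.98, 8.45, 8.48 and 10.26 there and 7.29 to 8.53 in controls. Cidea, a lipid droplet protein of brown fat, went the other way: it read 11.88, 11.34, 12.23, 12.80 and 11.05 in denervated 1 to 5 and 11.88 to 12.60 in controls, lowest of all in denervated 2 and 5. Lep, the hormone leptin, differed by 0.07 ± 0.37 and was highest in denervated 1. The mean of 5 macrophage markers, all with positive differences, was 0.41, 0.80, 0.82, 0.51 and 0.98 in denervated 1 to 5 and -0.39 to 0.44 in controls, with summed intensities over 6 of 39798 to 62440 against 25201 to 49128.

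Muscle markers did not order the glands as Cox8b did. Their mean over 12 genes was -0.03, -1.16, 0.69, 1.27 and -0.85 in denervated 1 to 5 and -0.57 to 1.13 in controls, and their summed intensity over 14 was 3811 to 25300 against 6810 to 21721. In denervated 2, which had the next to highest Cox8b, the muscle genes Tnnc2, Pvalb, Myh4, Myh7 and Tnni1 were at the floor. Blood markers were highest in denervated 2 and 5 (1.57 and 1.63) among all glands. The part of these cells in the Cox8b result was not tested. By a rule set after its values were seen, the genes whose levels followed Cox8b most closely over the 10 glands were Pdgfra (Pearson r = 0.977), Cmtm6 (0.961), Ctsk (0.959), Slfn5 (0.953) and C1r (0.949). They are the highest of 3566 candidates, and Pdgfra is itself one of the fibroblast markers above. As Cox8b was near the floor in every control, these values mostly restate which genes were high in the same denervated glands.

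Cox8a, the common form of subunit VIII, showed no such difference upward. It read 16.18, 16.39 and 16.46 in contralateral glands, 16.01 unoperated and 15.44 sham, against 16.03, 15.90, 16.05, 15.46 and 15.66 in denervated glands, a difference of -0.27 ± 0.24 (adjusted p = 0.725, limma). All denervated glands were below all contralateral glands, but not below the unoperated and sham glands. Its 4 probe sets had negative differences from -0.51 to -0.08.

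In the other isoform pairs the denervated and control glands overlapped. Cox6a1, the common form of subunit VIa, read 14.99, 15.26, 15.64, 15.39 and 14.88 in contralateral 1 to 3, unoperated and sham, and 14.96, 15.20, 15.12, 15.01 and 15.35 in denervated 1 to 5 (-0.11 ± 0.21). Cox6a2, the heart and muscle form, read 11.31, 9.93, 7.29, 8.06 and 11.60 in the controls and 11.29, 10.43, 10.13, 9.98 and 10.16 in the denervated glands. Its highest values were those of contralateral 1, sham and denervated 1, and the difference of 0.76 ± 0.74 was within the spread. Without those 3 glands it was 1.81 ± 0.67 (adjusted p = 0.326, limma). As they held its highest values and contralateral 1 and sham are controls, leaving them out raises the difference by the choice itself. Another probe set for Cox6a2 differed by -0.53 ± 0.67, and by -0.94 ± 0.81 without them. A further Cox6a2 probe set, too dim to be tested, was at the floor in 8 glands.

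Cox4i2, the form of subunit IV known for lung and low oxygen, read 11.31, 9.32, 10.78, 11.13 and 10.19 in contralateral 1 to 3, unoperated and sham, and 11.67, 11.996, 10.20, 11.11 and 10.27 in denervated 1 to 5. Denervated 1 and 2 were above the highest control and the others were not (0.50 ± 0.46, adjusted p = 0.734, limma). Cox7a1 and Cox7a2 were not analysed here.

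Cox5a, the nuclear-encoded subunit Va of the oxidase, had the largest negative difference of the members. It read 9.50, 9.44 and 8.79 in contralateral 1 to 3, 9.67 unoperated and 9.81 sham, and 7.29, 9.70, 8.37, 7.29 and 7.29 in denervated 1 to 5. Denervated 1, 4 and 5 were at the floor and denervated 2 was as high as the controls. Its denervated mean of 7.99 was under the limit, and it was tested only through the controls. The difference was -1.46 ± 0.57 (adjusted p = 0.451, limma), and the floor can make this an understatement. Another Cox5a probe set shares a symbol with a second locus and was left out.

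Cox6c, a small subunit of the oxidase, divided the glands in a way that does not follow their groups. It read 13.52 in contralateral 1, 13.97 in sham and 13.50 in denervated 1, against 10.31 to 11.99 in the other glands. The difference was -0.72 ± 0.71, and -0.17 ± 0.47 without those 3 glands. Its second probe set ranged from 9.25 to 12.02 without this division, and differed by 0.18 ± 0.50, or 0.26 ± 0.60 without them. The remaining oxidase genes, Cox5b, Cox6b1, Cox7b and Ndufa4 (now counted as a subunit of complex IV), differed by -0.45 to 0.16.

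ATP synthase had 8 of 9 genes with positive differences, with a median of 0.12. The largest was Atp5f1e, the epsilon subunit of the F1 stalk, at 14.16, 14.45 and 14.59 in contralateral 1 to 3, 14.50 unoperated and 14.01 sham. It read 14.14, 15.08, 14.68, 14.66 and 16.27 in denervated 1 to 5. Denervated 2 to 5 were above every control and denervated 5 was far above the rest. The difference was 0.62 ± 0.33 (adjusted p = 0.559, limma), and 0.34 ± 0.29 with its other probe set.

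The mean over the 9 genes was -0.21, 0.23, 0.05, 0.14 and 0.53 in denervated 1 to 5 and ran from -0.19 to 0.21 in controls, so that denervated 5 weighed most. The catalytic subunits Atp5f1a and Atp5f1b differed by 0.08 ± 0.20 and 0.06 ± 0.22. Atp5po, the stalk protein that confers oligomycin sensitivity, read 14.42, 14.86, 14.89, 14.53 and 14.77 in contralateral 1 to 3, unoperated and sham, and 14.57, 14.71, 14.71, 14.69 and 15.54 in the denervated glands (0.15 ± 0.22). Its other probe set differed by -0.35 ± 0.23, lowest in denervated 5 at 13.42 where the first was highest. Without denervated 5 the first differed by -0.03. Atp5pf, coupling factor 6 of the peripheral stalk, read 12.49, 13.22, 13.15, 13.24 and 12.49 in the controls and 12.67, 13.32, 12.72, 13.45 and 13.43 in the denervated glands (0.20 ± 0.25).

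Atp5if1 encodes the inhibitory factor that blocks ATP hydrolysis by the synthase when the membrane potential fails. Its brightest probe set read 11.39, 11.97 and 12.11 in contralateral glands, 11.86 unoperated and 11.45 sham, and 11.28, 12.86, 12.27, 12.55 and 13.53 in denervated 1 to 5. Denervated 2 to 5 lay above every control, and denervated 1 lay below all of them. The difference was 0.74 ± 0.36 (adjusted p = 0.522, limma). The probe set D13122_f_at ran from 11.03 to 11.96 in controls and read 11.66, 13.17, 12.51, 12.70 and 13.37 in denervated 1 to 5, a difference of 1.17 ± 0.33 or 2.25-fold (adjusted p = 0.434, limma). The remaining tested probe set went the other way (-0.78 ± 0.55).

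The paralog Cox7a2l, known for assembling supercomplexes, differed by 0.31 ± 0.31, the assembly factors Ndufaf3 and Sdhaf2 by 0.02 ± 0.27 and -0.19 ± 0.26, and Ndufa4l2 by -0.41 ± 0.67. Other probe sets differed by 0.16 ± 0.29 and -0.99 ± 0.55 for Ndufaf3 and by 0.61 ± 0.55 for Ndufa4l2.

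**Figure D4:**
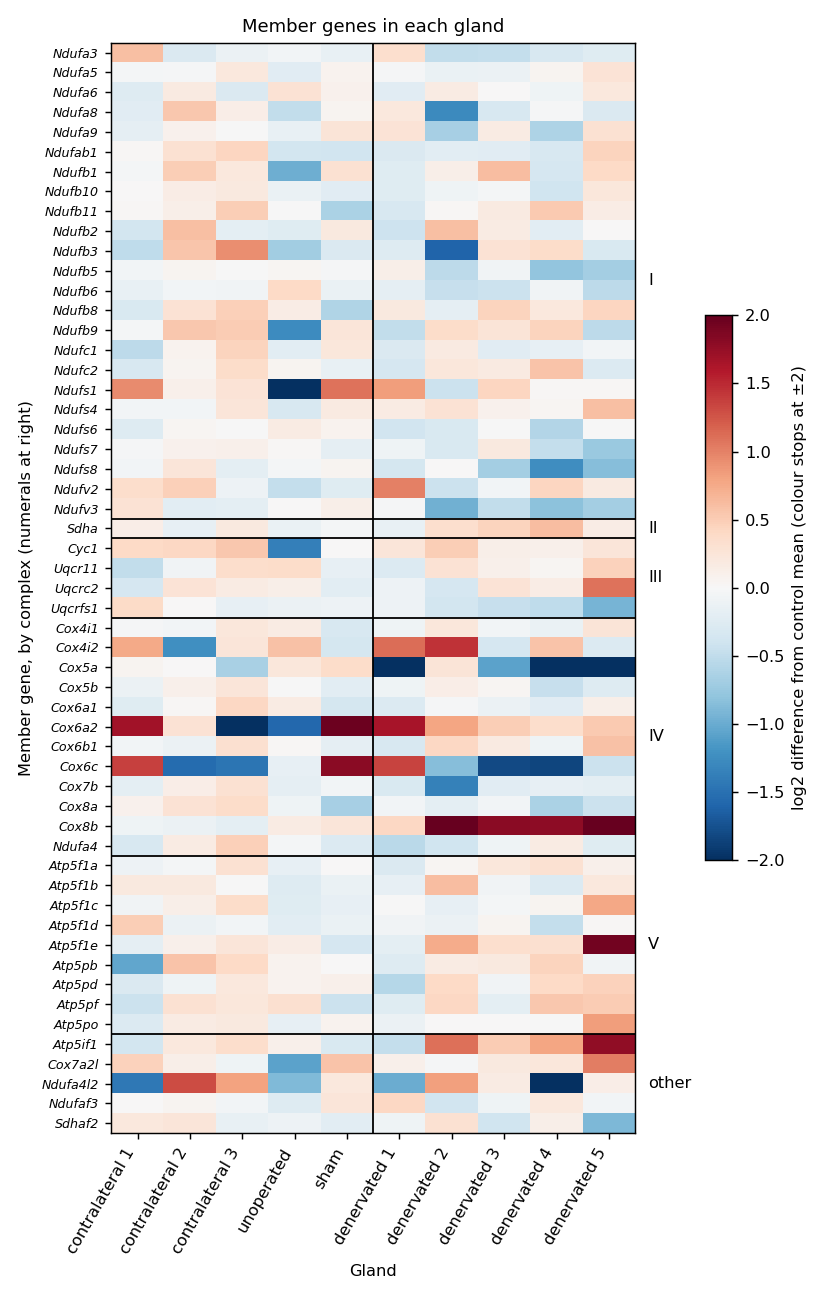
Log2 difference of each of the 55 member genes (rows, by complex) from its mean over the 5 control glands, in each of the 10 glands (columns), with colour from blue (lower) to red (higher) stopping at 2 units. Most cells are pale. Cox8b is red in denervated 2 to 5, Cox5a is blue in denervated 1, 3, 4 and 5, and Cox6a2 and Cox6c are red in contralateral 1, sham and denervated 1.

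Comparing denervated with the 3 contralateral glands only, members leaned downward. In this comparison 21 of the 55 member genes were higher, with a median of -0.10. Among probe sets with a mean of 12 or more, 20 of 63 members were higher (median -0.12) and 570 of 1188 in all (median -0.02). Over all 93 member probe sets, in which some genes count several times, 32 were higher and 61 lower. Their median was -0.15, against -0.01 over all tested. At an unadjusted p under 0.05, 2 were higher and 2 lower, where 4.15% and 3.01% of all probe sets were (7.16% in either direction), and 0 reached an adjusted p under 0.05 by limma (0% of all). Denervated glands lay wholly above contralateral glands for 1 member probe set and wholly below for 5, where 2.19% and 2.55% of all tested did so (4.74% in either direction). The 1 above was Cox8b (2.12 ± 0.65, adjusted p = 0.634). The 5 below were 3 probe sets of Cox8a, with differences of -0.47, -0.63 and -0.52, and 1 each of Ndufb5 and Uqcrfs1 (-0.40). At a mean of 12 or more, the glands did not overlap for 0 of 63 members upward and 4 downward, and for 33 and 66 of 1188 in all. Complex I had 5 genes higher and 19 lower, and ATP synthase 6 higher and 3 lower. Both comparisons share the denervated and contralateral glands.

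The contralateral glands were also set against the unoperated and sham glands, which asks whether the unsectioned side of operated rats differed from rats without nerve section. Of the 55 member genes, 39 were higher in contralateral glands, with a median of 0.14. Among probe sets with a mean of 12 or more, 51 of 63 members were higher (median 0.18) and 689 of 1188 in all (median 0.09). Over all 93 member probe sets, 66 were higher, with a median of 0.16, against -0.15 over all tested. At an unadjusted p under 0.05, 4 were higher and 0 lower, where 1.52% and 3.37% of all were (4.89% in either direction), and 0 passed after adjustment by limma (0% of all). With only 2 glands on one side, the classes did not overlap for 18 probe sets upward and 3 downward, where 6.83% and 15.2% of all tested did so (22% in either direction). At a mean of 12 or more, this held for 16 of 63 members upward and 1 downward, and for 148 and 90 of 1188 in all.

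Each of the 4 probe sets higher at an unadjusted p under 0.05 by limma rested on low values in the unoperated gland, the sham gland or both. Cyc1 read 11.55 in the unoperated gland. A Ndufb8 probe set read 8.17 in the sham gland and 12.39 to 13.41 elsewhere, while the brighter Ndufb8 probe set read 12.94 there. The dimmer Ndufv3 probe set read 8.10 and 7.29 in these glands. Uqcrfs1 (M24542cds_at) read 12.86 and 12.67 there, and 13.28 to 13.48 in contralateral glands.

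Denervated glands against the same 2 glands gave 35 of 55 member genes higher, with a median of 0.09. Among probe sets with a mean of 12 or more, 43 of 63 members were higher (median 0.09) and 657 of 1188 in all (median 0.05). Over all 93 member probe sets, 58 were higher, with a median of 0.07, against -0.17 over all tested. At an unadjusted p under 0.05, 6 were higher and 2 lower, where 3.38% and 4.51% of all were (7.89% in either direction), and 0 passed after adjustment by limma (0% of all). The classes did not overlap for 7 upward and 4 downward, where 4.15% and 9.1% of all tested did so (13.3% in either direction). The 6 were probe sets of Cox8b, Atp5if1, Cox7a2l, Cyc1, Ndufb8 and Ndufv3, and the 2 were Cox5a and the brighter Ndufv3 probe set. At a mean of 12 or more, the classes did not overlap for 5 of 63 members upward and 2 downward, and for 72 and 60 of 1188 in all. The directions of all-gene medians here depend on the scaling: dividing each array by its median gave 0.18 for contralateral and 0.14 for denervated against these 2 glands, where the deposited scaling gave -0.15 and -0.17. The medians over the 55 member genes were positive under both scalings, at 0.47 and 0.41 with median scaling.

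Probe sets for the same member often disagreed. Of 26 genes with several tested probe sets, 13 had differences of both signs, and in 14 at least 1 pair correlated below 0 over the 10 glands. The 4 probe sets of Cox8a shared a sign, as did those of Ndufs8, while those of Uqcrfs1, Ndufv3, Atp5if1 and Atp5po did not. Pairs of different members correlated weakly over the glands, with a median r of 0.07 against 0.02 for all probe sets tested, and 0.13 against 0.01 among probe sets with a mean of 12 or more. These arrays share their scaling, so these are descriptions only. The genes most like the mean of the members, over 10 glands and among 3566 candidates, were Cenpw (Pearson r = 0.867), Amhr2 (0.835), Omd (0.830), Nme1 (0.826) and Gnb1 (0.815).

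Other mitochondrial lists were counted in the same way, under the deposited scaling only, without a test of their difference from the respiratory chain. Of 11 measured citric acid cycle genes, 3 had positive and 8 negative differences in denervated against control glands, with a median of -0.44, and 3 reached an unadjusted p under 0.05, all lower, where 4.66% of all probe sets were lower at that threshold and 9.68% in either direction. Cs, citrate synthase, the entry enzyme of the cycle, read 11.67, 11.36 and 10.88 in contralateral glands, 10.82 unoperated, 11.67 sham, and 10.65, 10.76, 9.90, 10.64 and 9.40 after denervation. Every denervated gland was below every control (1.03% of all probe sets did so), by -1.01 ± 0.36 (adjusted p = 0.437, limma). Dlat, the acetyl-transferring part of pyruvate dehydrogenase, differed by -0.72 ± 0.25 (adjusted p = 0.437, limma).

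Of 16 fatty acid oxidation genes, 4 had positive and 12 negative differences, with a median of -0.29, and an unadjusted p under 0.05 was reached by 1 upward and 3 downward, where 5.02% and 4.66% of all probe sets were. Cpt2, which releases acyl groups from carnitine inside the mitochondrion, differed by -0.71 ± 0.27, and Acadm, the medium-chain dehydrogenase, by -0.64 ± 0.29. The list's mean was -0.35 to -0.11 in denervated glands and -0.04 to 0.05 in controls, so the glands did not overlap under the deposited scaling. Array medians were 554 in denervated 4 and 979 in the sham gland, so another scaling could change this, and none was tried here. The same mean for the citric acid cycle was -0.56 to -0.11 and -0.17 to 0.16, which overlapped through denervated 1.

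Membrane carriers had 6 positive and 5 negative differences. Slc25a11, the oxoglutarate carrier, differed by -0.72 ± 0.24 and Tspo, the cholesterol-binding outer membrane protein, by 0.77 ± 0.28. Slc25a4, the ADP/ATP carrier of heart and muscle, is named after its values were seen because it was highest in denervated 2 and 5, as Cox8b was. It read 10.42, 14.19, 12.06, 11.997 and 14.16 in denervated 1 to 5, and 10.88 to 11.57 in controls (1.44 ± 0.58, adjusted p = 0.459, limma).

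The other lists were small. Import and assembly genes (9) had a median of -0.11, regulators (3) of 0.12, mitochondrial antioxidants (6) of -0.21, and glycolysis genes (12) of 0.30. None of the import genes and regulators reached an unadjusted p under 0.05 by limma. Nnt, the mitochondrial transhydrogenase, read 13.12 to 13.37 in controls and 12.29 to 13.05 in denervated glands, which did not overlap (-0.55 ± 0.21; 1.03% of all probe sets lay wholly lower), and Gpx4, the lipid peroxidase, differed by -0.52 ± 0.28. Pgam1 and Hk2, of glycolysis, differed by -0.68 ± 0.31 and -1.08 ± 0.55. Pmpca and Timm17a of the import list differed by -0.67 ± 0.33 and -0.35 ± 0.27, and Sp1 and Hif1a among regulators by 0.80 ± 0.66 and -0.10 ± 0.34.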

How the data were processed

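Total RNA from each gland was hybridised to 1 Affymetrix rat array. The deposited table holds linear intensities of 8799 probe sets. These deposited intensity values showed that the authors had scaled the arrays to a common level: means with 2% trimmed at each end ran from 2505 to 2507. The software is not given in the sources used here. The deposited scaling was kept. The 59 control probe sets were left out, a floor at the 20th percentile of all values (156.2) was applied before taking log2, and the 6118 of 8740 probe sets with a mean above the 30th percentile were tested.

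Symbols came from the platform annotation. Their gene IDs, and the promoter sequences, came from RefSeq tables of GRCr8. Differences were tested with limma 3.58.1 in R 4.3.3 (lmFit, eBayes with a variance trend), two-sided, adjusted over all probe sets by Benjamini-Hochberg: denervated against all controls in a 2-class fit, the others in a 3-class fit with unoperated and sham pooled as 1 class. Precision is limited by the number of arrays. The steps were also run on simulated data with independent normal spread in each probe set. No differences shared by sets of glands were simulated, so their effect on the p-values was not tested.

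Members and lists were chosen with earlier results of these data known. Named genes are, per complex, the brightest and the 2 with the smallest p, members at an unadjusted p under 0.05, the isoform pairs, 2 genes per other list and the 5 genes most like the member mean. Exceptions are stated. Alternatives tried were another scaling (quantile, median), floor, filter or variance model, weights per array, all probe sets in place of 1 per gene, gland numbers as a block, and leaving out each gland. Leaving out or blocking sets of glands that stood apart was chosen after seeing the data. Figures were drawn with matplotlib 3.10.9.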

Additional observations from a re-analysis of the deposited data

Results flagged for a closer look

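The main probe set of each of the 55 genes was searched in both classes by Dixon's criterion on the gap to the nearest gland. For 10 of these probe sets the data had 1 gland far from the other 4 of its class. The same count over all probe sets tested was not made. Chance marks about 1 in 20 classes tested in this way where values are normally distributed, which was not checked. Each probe set was searched in 2 classes, so the 10 are not a share of 55 to set beside that rate. In denervated 5, Atp5f1c read 14.40 (13.46 to 13.68 in the other denervated glands), Atp5po 15.54 (14.57 to 14.71), Cox7a2l 15.13 (14.09 to 14.34) and Ndufab1 14.02 (13.26 to 13.37), all high. In denervated 2, Cox7b was low at 12.67 (13.72 to 13.87). Among controls, contralateral 1 was high for Atp5f1d at 13.87 (13.16 to 13.32) and for Ndufa3 at 13.69 (12.80 to 13.04). The unoperated gland was low for Cyc1 at 11.55 (12.93 to 13.46) and Ndufs1 at 7.30 (9.80 to 10.78), and high for Ndufb6 at 13.07 (12.52 to 12.61).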

How the results depend on the processing

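No setting other than leaving out denervated 1 called a member in denervated against all control glands. Member probe sets at an unadjusted p under 0.05 there numbered 7, and 3 with median scaling, with no variance trend and without denervated 2 and 5, and 3 to 12 leaving out each gland (12 without denervated 1, 3 without denervated 4, 4 without denervated 5), with 0 to 66 probe sets called. Against contralateral glands they numbered 4, and 11 with no filter and with array weights, 7 without contralateral 1, sham and denervated 1, and 2 to 9 leaving out each gland (9 without denervated 1, 2 without denervated 4 or 5). With no variance trend and with array weights 1 probe set was called. Contralateral against unoperated and sham glands gave 9 at an unadjusted p under 0.05 and a member median of 0.47 with median scaling, 7 probe sets called with no filter, and 3 to 7 members (7 without contralateral 1), 0 to 1 calls (1 without the unoperated gland) and medians of 0.07 to 0.23 leaving out each gland. Denervated against those glands gave a median of 0.41 with median scaling, 13 calls with no filter, and 3 to 10 members (3 without the unoperated gland, 5 without denervated 5), 0 to 5 calls (5 without denervated 1, 3 without the unoperated gland) and medians of 0.03 to 0.15 leaving out each gland. The cause of these shifts was not tested.

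Signs turned for differences near 0, and for Cox6a2 against contralateral glands, whose difference of 0.89 became -0.22 without contralateral 3. Against all controls, Cox4i1 became -0.11 with quantile normalization, -0.0060 with array weights, -0.024 with the replicate block, -0.0041 with 3 glands as a block, -0.036 without contralateral 1, sham and denervated 1, and -0.091 without denervated 2 and 5, and ran from -0.036 to 0.099 leaving out each gland. Cox6a1 became 0.015 with median scaling. Without denervated 2 and 5, Atp5po became -0.038 and Uqcr11 -0.044. Leaving out each gland, Atp5po ran from -0.026 to 0.22 and Uqcrc2 from -0.0023 to 0.35, both below 0 without denervated 5, and Cox4i1 was below 0 without sham, denervated 2 or denervated 5. Against contralateral glands, Atp5po became -0.022 with array weights and -0.068 without denervated 2 and 5, and Atp5pf -0.0051 without them. Leaving out each gland, Atp5pf ran from -0.065 to 0.30, Atp5po from -0.056 to 0.20, Cox4i1 from -0.065 to 0.077, Uqcr11 from -0.016 to 0.41, Uqcrc2 from -0.034 to 0.32 and Cox6a2 from -0.22 to 1.80. Atp5pf, Atp5po and Uqcr11 turned there without contralateral 1, Atp5po and Uqcrc2 without denervated 5, and Cox4i1 without contralateral 3 or denervated 1, 3 or 4.

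Same-numbered contralateral and denervated glands correlated at 0.488, 0.037 and 0.164 in their deviations from class means. Pairs with unlike numbers ran from -0.336 to 0.232. These few values cannot tell whether same-numbered glands share a rat, and the main fits did not pair them. With that number as a replicate block, the difference comes from the 3 numbered pairs alone, whether or not the unpaired glands are in the fit, so both comparisons give the same differences. In it 0 probe sets were called, 5 members had an unadjusted p under 0.05, the member gene median was -0.083, and Atp5pf (-0.047), Atp5po (-0.062) and Uqcrc2 (-0.083) turned sign.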
